A study of Rattus norvegicus with 6 samples.

Results

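The glycoprotein hormone subunit genes of the pituitary gland, together with the receptors and transcription factors of the cells that make these hormones, were examined in male rats whose mothers received nicotine during pregnancy. The 9 genes were chosen by symbol out of 33294 gene symbols in the count files. They are the subunit genes Cga, Lhb, Fshb and Tshb, the receptor genes Gnrhr and Trhr, and the factor genes Nr5a1, Gata2 and Foxl2. All 9 passed the filter on low counts, which left 17292 genes to test. Pituitary RNA was sequenced from 3 Sprague-Dawley males of dams given nicotine (6 mg/kg/day) and from 3 males of control dams, 1 library per rat, all killed at 11 weeks of age. Groups follow the sample titles. The paper's supplement lists fewer reads for nicotine than for control libraries, in listed order. Counts here ran the other way by replicate, and those of nicotine exceeded the reads listed for that group. Acta2 was higher and most genes that differed in DESeq2 were lower after nicotine here. The paper reports the same directions. Whether the titles are right was not tested, and all directions given depend on them. The dams carried an osmotic pump made for 28 days, filled with nicotine tartrate in sterile saline or with saline alone, and gave birth 13 days after it was implanted. How long the pump ran after birth, and which rats shared a dam, are not given in the sources used here. Littermates in a group would make the p-values too small, and all p-values measure only the spread between these rats. The comparison asked whether the exposure before birth left a difference in the hormone genes of the adult gland, which was studied for its part in controlling reproduction.

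As background, luteinizing hormone, follicle-stimulating hormone and thyrotropin are each a pair of proteins. All of them share the alpha subunit encoded by Cga, and each has its own beta subunit, encoded by Lhb, Fshb or Tshb. Gonadotrophs make both gonadotropins and carry Gnrhr, the receptor for gonadotropin-releasing hormone from the hypothalamus, and their identity depends on Nr5a1, also called steroidogenic factor. Thyrotrophs make thyrotropin and carry Trhr, the receptor for thyrotropin-releasing hormone. Luteinizing hormone drives testosterone synthesis in Leydig cells of the testis, and follicle-stimulating hormone acts on Sertoli cells.

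The libraries held 28318383 to 85977002 counts, and the gland was recognisable in all of them, with Gh1 or Pomc as the gene with most counts. The 9 testis genes checked, which bear on the extraction protocol because its text describes testes, summed to at most 0.397 CPM (read counts relative to the TMM-scaled library size) in any library, with Tnp2 and Ddx4 listed at 0 throughout. Nicotine replicate 2 stood apart from the rest, at a mean distance of 90.8 from the other libraries (Euclidean, over log2 CPM of the genes tested) against 72.0 to 80.7. It was the deepest library, and values without it are given beside those of all 6. In a bulk gland fewer cells of a type and less RNA per cell cannot be told apart.

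Among the gonadotroph genes, Lhb, Gnrhr and Nr5a1 had their 3 nicotine libraries above the 3 controls. The groups overlapped for Cga, Fshb and Foxl2, and no member passed the thresholds. A gene was called where it differed by more than 1.5-fold and its adjusted p was below 0.1. In edgeR 0 of the 9 genes were called, as were 0 of the 17292 genes tested (0%). DESeq2 also called 0 of the 9, against 62 of the 17876 genes for which it gave an adjusted p (0.347%). At an unadjusted p under 0.05 edgeR had 3 of the 9 higher and 0 lower, against 1011 genes in all (5.85%), of which 3.12% were higher and 2.73% lower, and DESeq2 had 4 of the 9, all higher, against 4.7% of its genes, 2.35% higher. The groups did not overlap for 3 of the 9, all above, against 1946 genes (11.3%), with 6.12% above and 5.14% below. These counts are descriptions of 9 genes chosen together, and no p-value was computed over the group.

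**Figure D1:**
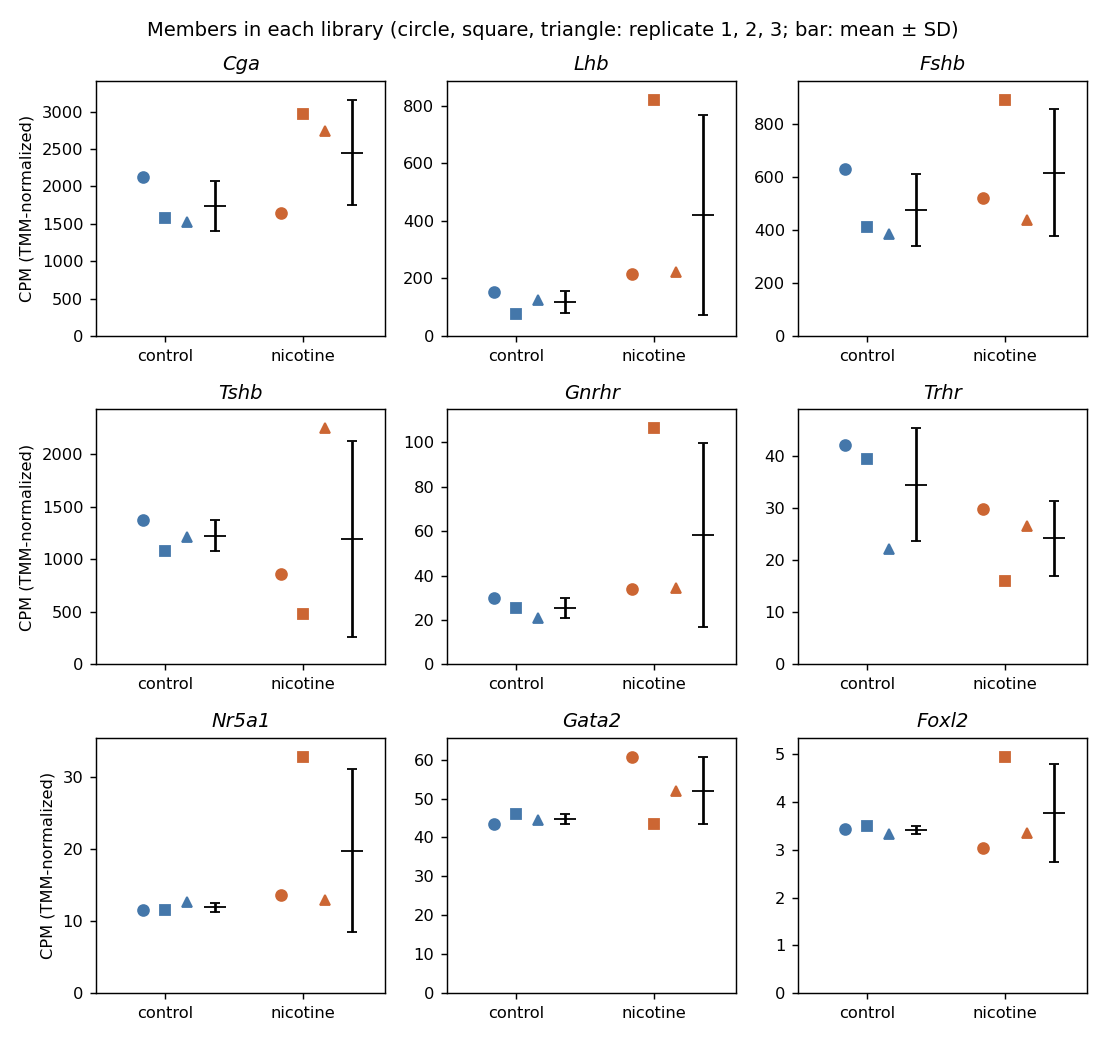
Level of each gene in each library, in CPM after TMM normalization, on linear axes that start at 0, with the 3 control rats in blue, the 3 nicotine rats in orange, the replicate given by the symbol and the mean ± SD as a black bar. Nicotine replicate 2 (square) is the highest library for Cga, Lhb, Fshb, Gnrhr, Nr5a1 and Foxl2 and the lowest for Tshb, Trhr and Gata2.

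Lhb, the beta subunit gene of luteinizing hormone, was at 216, 820 and 223 CPM in nicotine replicates 1, 2 and 3 and at 154, 75.6 and 125 CPM in control replicates 1, 2 and 3. The groups did not overlap, and nicotine replicate 2 was 3.67 times as high as the next library. The nicotine mean was 420 ± 347 CPM and the control mean 118 ± 39.6 CPM (SD, n = 3 each), a ratio of 3.55. In RefSeq on GRCr8 the gene overlaps Saxo3, so some reads could belong to either. The log2 fold change of Lhb was 1.83 (SE 0.48, unadjusted p = 0.00306, adjusted p = 0.807 from edgeR), and the exact two-sided permutation test gave p = 0.1, the smallest that 3 libraries against 3 allow. Without nicotine replicate 2 the log2 fold change was 0.89 (SE 0.24, adjusted p = 0.553 from edgeR). Lhb passed the thresholds under 2 of 16 other settings, both of which called more genes over all. These were edgeR without the low-count filter (adjusted p = 0.0518, 30 genes called) and DESeq2 without nicotine replicate 2 (log2 fold change 0.89, adjusted p = 0.0807, 120 genes called), the latter chosen after seeing the data. Over all 16 settings its adjusted p lay between 0.0518 and 0.999.

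The promoters of Lhb, Cga, Gnrhr and Tshb are shown as examples of the hormone and receptor genes. Nr5a1 and Gata2, which encode factors known to act on such promoters, are themselves among the 9 genes. The stretches are the 250 bases before the gene start in RefSeq on GRCr8, which is a later build than the rn7 of the count files, read along the gene's strand. They lie at chr1:105037207-105037456 on the plus strand for Lhb, at chr5:54283090-54283339 on the plus strand for Cga, at chr14:22211416-22211665 on the plus strand for Gnrhr and at chr2:192918055-192918304 on the minus strand for Tshb. Capitals mark matches on either strand to AAGGNCA (the half-site read by Nr5a1), AGATAA or TGATAA (read by GATA factors), GNGGGGGNG (read by Egr1) and TGANGTCA (similar to a cyclic AMP response element).
Lhb: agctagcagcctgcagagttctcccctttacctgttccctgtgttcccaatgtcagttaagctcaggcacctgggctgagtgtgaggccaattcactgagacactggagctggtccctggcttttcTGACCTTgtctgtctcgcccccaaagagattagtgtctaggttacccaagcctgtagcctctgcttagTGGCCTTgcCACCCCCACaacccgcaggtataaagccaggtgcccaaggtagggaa
Cga: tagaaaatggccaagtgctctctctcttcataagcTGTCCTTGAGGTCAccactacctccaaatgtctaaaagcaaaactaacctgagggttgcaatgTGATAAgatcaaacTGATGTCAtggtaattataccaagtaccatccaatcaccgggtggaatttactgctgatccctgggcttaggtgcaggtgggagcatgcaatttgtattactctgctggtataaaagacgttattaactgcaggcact
Gnrhr: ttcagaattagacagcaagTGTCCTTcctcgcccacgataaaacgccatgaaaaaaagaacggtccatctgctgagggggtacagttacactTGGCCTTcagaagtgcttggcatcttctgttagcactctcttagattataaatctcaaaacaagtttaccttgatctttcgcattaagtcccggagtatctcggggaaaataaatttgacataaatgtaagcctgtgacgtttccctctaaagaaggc
Tshb: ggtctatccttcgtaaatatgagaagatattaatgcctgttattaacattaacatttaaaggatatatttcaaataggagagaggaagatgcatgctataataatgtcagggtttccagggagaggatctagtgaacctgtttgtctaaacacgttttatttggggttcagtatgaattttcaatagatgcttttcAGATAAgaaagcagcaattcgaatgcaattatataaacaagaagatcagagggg
The motifs were picked after the sequences had been seen. Lhb held 2 Nr5a1 half-sites, at 124 to 118 and 56 to 50 bases before the start, with an Egr1 match at 47 to 39. Cga held 1 half-site at 215 to 209, a GATA match at 152 to 147 and a pair of response element matches, of which the farther, at 209 to 202, shares a base with the half-site. Gnrhr held 2 half-sites, at 231 to 225 and 158 to 152. Tshb held a GATA match at 54 to 49 and no other. Of the promoters not shown, Gata2 held a half-site at 105 to 99, and Nr5a1 an Egr1 match at 70 to 62 and no half-site. Promoters of Fshb, Trhr and Foxl2 were not found, and whether half-sites go with the levels was not tested. Among 27457 promoter stretches of the same length, 17.3% held the half-site, 16.6% a GATA match, 15.1% an Egr1 match and 8.81% the response element match, so each motif is common. A match describes letters in the genome and was not measured as binding.

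Cga, the shared alpha subunit gene, was at 1651, 2970 and 2737 CPM in nicotine replicates 1, 2 and 3 and at 2127, 1575 and 1519 CPM in control replicates 1, 2 and 3. Nicotine replicates 2 and 3 were above all controls and nicotine replicate 1 lay among them. The means were 2452 ± 704 CPM and 1741 ± 336 CPM (SD, n = 3 each). The log2 fold change was 0.49 (SE 0.26, adjusted p = 0.840 from edgeR), and 0.33 without nicotine replicate 2. Fshb, the beta subunit gene of follicle-stimulating hormone, was at 522, 890 and 437 CPM after nicotine and at 630, 410 and 384 CPM in controls, in replicate order. Here the groups overlapped, and apart from nicotine replicate 2 the nicotine levels lay within the range of the controls. Its log2 fold change was 0.38 (SE 0.29, adjusted p = 0.854 from edgeR), and 0.0089 (SE 0.21) without nicotine replicate 2.

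Tshb, the beta subunit gene of thyrotropin, was at 857, 480 and 2247 CPM in nicotine replicates 1, 2 and 3 and at 1379, 1081 and 1214 CPM in control replicates 1, 2 and 3. The nicotine rats lay on both sides of the controls, with means of 1195 ± 931 CPM and 1225 ± 149 CPM (SD, n = 3 each). Tshb overlaps Tspan2 in RefSeq on GRCr8, a gene at 8.96 to 15.1 CPM here. The log2 fold change was -0.04 (SE 0.44, adjusted p = 0.991 from edgeR). It turned to 0.33 without nicotine replicate 2 and was -0.87 without nicotine replicate 3. The 2 nicotine glands with the highest Cga thus differed in their beta subunits. Nicotine replicate 2 had the highest Lhb and Fshb of all libraries with the lowest Tshb, and nicotine replicate 3 had the highest Tshb.

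**Figure D2:**
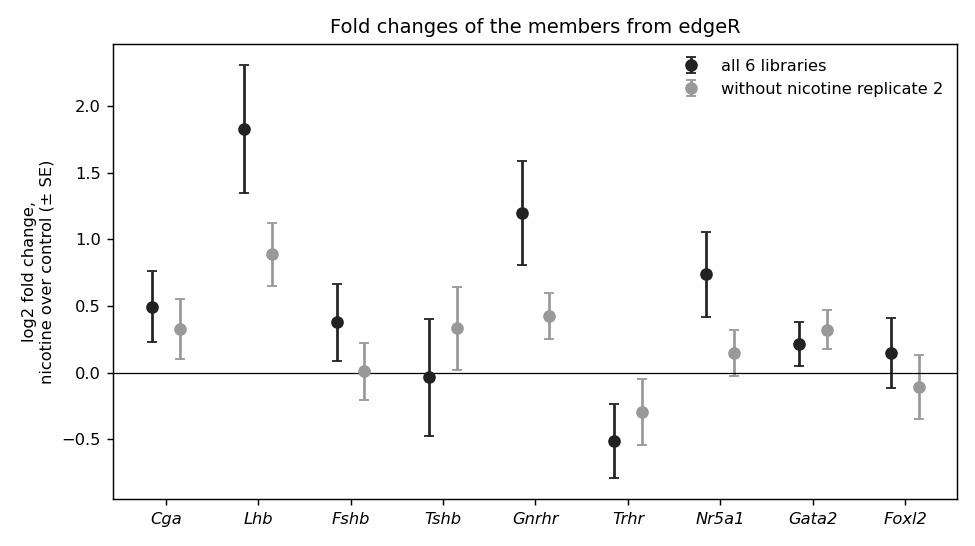
Log2 fold change of each gene, nicotine over control, from edgeR, with its standard error as the bar, in black for all 6 libraries and in grey without nicotine replicate 2. Lhb goes from 1.83 to 0.89, Gnrhr from 1.20 to 0.43 and Nr5a1 from 0.74 to 0.15, while Tshb and Foxl2 change sign.

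Gnrhr, whose product receives the hypothalamic signal to release gonadotropins, was at 34.2, 106 and 34.6 CPM in nicotine replicates 1, 2 and 3 and at 30.1, 25.3 and 21.0 CPM in control replicates 1, 2 and 3. The groups did not overlap, and nicotine replicate 2 was 3.07 times as high as the next library. The log2 fold change was 1.20 (SE 0.39, unadjusted p = 0.0107, adjusted p = 0.807 from edgeR), with an adjusted p of 0.147 in DESeq2. It was 0.43 (SE 0.17, adjusted p = 0.743 from edgeR) without nicotine replicate 2, and the adjusted p lay between 0.147 and 0.999 over the 16 other settings. Trhr, the thyrotroph receptor gene, was at 29.9, 16 and 26.6 CPM after nicotine and at 42.1, 39.3 and 22.2 CPM in controls, in replicate order. Control replicate 3 lay below 2 of the 3 nicotine libraries, so the groups overlapped. Its log2 fold change was -0.51 (SE 0.28, adjusted p = 0.840 from edgeR), and it lay between -0.75 and -0.30 with 1 library left out at a time.

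Nr5a1, a nuclear receptor gene of gonadotrophs, was at 13.6, 32.9 and 13.0 CPM in nicotine replicates 1, 2 and 3 and at 11.6, 11.5 and 12.6 CPM in control replicates 1, 2 and 3. The groups did not overlap, but nicotine replicate 3 was barely above control replicate 3. The log2 fold change of 0.74 (SE 0.32, unadjusted p = 0.0417, adjusted p = 0.839 from edgeR) fell to 0.15 (SE 0.17) without nicotine replicate 2. Gata2, a zinc finger factor gene of thyrotrophs and gonadotrophs that overlaps LOC120102333 (2.89 to 4.35 CPM) on GRCr8, was at 60.7, 43.4 and 51.9 CPM after nicotine and at 43.6, 46.1 and 44.5 CPM in controls, in replicate order. Nicotine replicate 2 was the lowest library for Gata2, and the groups overlapped. Its log2 fold change was 0.22 (SE 0.17, adjusted p = 0.854 from edgeR), and 0.32 (SE 0.14, adjusted p = 0.782, over the 16 other settings 0.706 to 0.999) without nicotine replicate 2, where the remaining nicotine libraries were above all controls. Foxl2, a forkhead factor gene known to act on Fshb, was at 3.03, 4.95 and 3.35 CPM after nicotine and at 3.43, 3.50 and 3.33 CPM in controls. These levels rest on 93 to 456 counts per library. Its log2 fold change was 0.15 (SE 0.26, adjusted p = 0.927 from edgeR) and turned to -0.11 without nicotine replicate 2.

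Most of the 9 genes varied more among the 3 nicotine rats than among the 3 controls, but for several this was no longer so without nicotine replicate 2. The coefficient of variation was higher after nicotine for 8 of the 9, Trhr being the other, against 62.1% of all genes tested. It was 77.9% against 12.2% for Tshb, 57.2% against 5.30% for Nr5a1 and 82.6% against 33.5% for Lhb. Without nicotine replicate 2, a comparison added after seeing the data, it was higher after nicotine for 4 of the 9, Cga, Tshb, Gata2 and Foxl2, against 41.3% of all genes tested. It was then 2.48% over the remaining pair for Lhb, 3.33% for Nr5a1 and 63.3% for Tshb. A coefficient from 2 libraries tends to be lower than one from 3, so the drop to 4 of the 9 cannot be put down to that library alone. Nicotine replicate 2 was the highest of the 6 libraries for 6 of the 9 genes and the lowest for the other 3, whereas it was highest for 26.9% and lowest for 26.8% of all genes tested. In that library Lhb, Gnrhr and Nr5a1 were each more than 2 times the next highest library, which held for 73 of the genes tested (0.422%). The 3 genes differed less in the remaining libraries. Without nicotine replicate 2, Lhb, Gnrhr, Nr5a1 and Gata2 were above all controls and 0 of the 9 below, against 11.8% and 9.91% of the genes tested. For Lhb, Gnrhr and Nr5a1 this follows from their separation over all 6 libraries, so only Gata2 was added.

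Markers of other cells also differed between the libraries, and several lists had an extreme value in nicotine replicate 2. Of all genes tested, 5.85% had an unadjusted p under 0.05 in edgeR, with 3.12% higher and 2.73% lower. Nicotine replicate 2 was the highest library for 26.9% and the lowest for 26.8% of all genes tested. The posterior lobe genes, led by Avp and Oxt, summed to 90.8 to 245 CPM after nicotine and 12.2 to 84.5 CPM in controls, with 6 of 7 highest in nicotine replicate 2 and 5 of 7 at an unadjusted p under 0.05, all higher. Blood cell genes, led by Hba-a1 and Hbb, summed to 3094 to 9714 CPM and 8083 to 16292 CPM, with 5 of 9 lowest in nicotine replicate 2 and 7 of 9 at that p, all lower. The corticotroph and melanotroph genes, led by Pomc and Pcsk2, summed to 20721 to 46606 CPM and 36311 to 72297 CPM, with 1 of 6 at that p, lower. That sum is nearly all Pomc, which was lowest in nicotine replicate 2, whereas 3 of the 6 genes, Tbx19 among them, were highest there. The somatotroph and lactotroph genes, led by Gh1 and Prl, summed to 83147 to 133573 CPM and 78267 to 110390 CPM, with 1 of 6 at that p, lower. Their sum was highest in nicotine replicate 2, where 2 of the 6 genes were highest and 3 lowest. Endothelial genes, led by Plvap and Kdr, summed to 169 to 277 CPM and 139 to 185 CPM, and pericyte and smooth muscle genes, led by Tagln and Myh11, to 40.4 to 205 CPM and 42.7 to 56.2 CPM, each with 3 of 6 at that p, all higher. Nicotine replicate 2 had the lowest nicotine sum for both, so these lists did not follow Lhb. The sum of 205 CPM was that of nicotine replicate 3, where Tagln alone was at 138 CPM. In the other libraries Tagln was at 10.6 to 32.4 CPM. Stem and folliculostellate genes, led by Aldh1a1 and S100b, lay at 363 to 514 CPM and 358 to 421 CPM, with 0 of 8 at that p. Neuron genes, led by Snap25 and Rbfox3, lay at 234 to 247 CPM and 220 to 234 CPM, with 0 of 4 tested at that p. The neuron sum was nearly all Snap25, at 209 to 230 CPM. None of the genes found of these 8 lists was at 0 in all libraries. The part of these cells in the differences of Lhb, Gnrhr and Nr5a1 was not tested.

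Ratios within a library do not depend on the scaling between libraries, and 5 of them were compared. They are ratios of counts, and gene length makes their size uninformative, so only differences between libraries are read from them. The ratio of Fshb to Lhb was 2.42, 1.09 and 1.96 in nicotine replicates 1, 2 and 3 and 4.09, 5.43 and 3.07 in control replicates 1, 2 and 3. Every nicotine rat had less Fshb per Lhb than every control rat. The mean log2 ratio was 0.79 ± 0.60 with nicotine and 2.03 ± 0.41 without (SD, n = 3 each). The difference was -1.24, a ratio 2.37 times as high in controls, with p = 0.1 in the exact two-sided permutation test, the smallest value possible, and 0.25 after adjustment over the 5 ratios. Without nicotine replicate 2 the difference was -0.91, a ratio 1.88 times as high in controls.

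**Figure D3:**
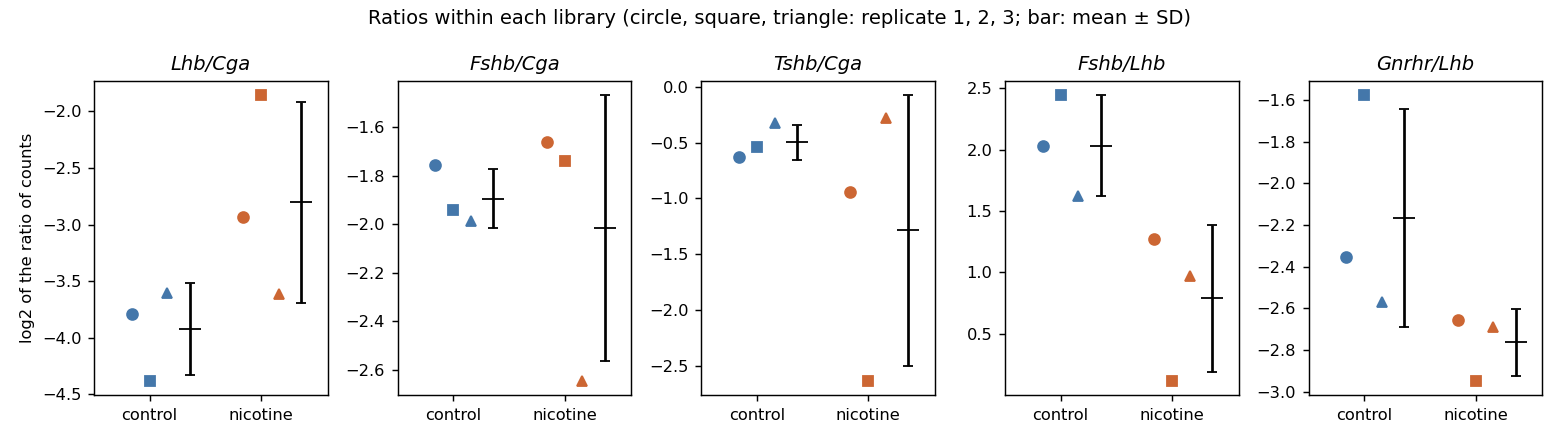
Log2 of the ratio of counts of each gene pair within each library, with controls in blue, nicotine rats in orange, the replicate given by the symbol, and the mean ± SD as a black bar, on log axes of unequal range. The nicotine libraries lie below the controls for Fshb/Lhb (0.12 to 1.28 against 1.62 to 2.44) and for Gnrhr/Lhb, and the groups overlap for the ratios to Cga.

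The ratio of Gnrhr to Lhb was 0.159, 0.130 and 0.155 after nicotine and 0.195, 0.335 and 0.168 in controls, in replicate order. The groups did not overlap, but the highest nicotine ratio, 0.159, was just under the lowest control ratio, 0.168. Whether Lhb differed per gonadotroph was not tested. The difference was -0.60 on the log2 scale (exact two-sided permutation p = 0.1, adjusted 0.25), and control replicate 2 carried much of it, since without that library it was -0.30. The ratio of Lhb to Cga was 0.131, 0.276 and 0.0816 after nicotine and 0.0724, 0.0480 and 0.0823 in controls. Nicotine replicate 3 lay just under the highest control, and the log2 difference of 1.12 had an exact permutation p of 0.2 (adjusted 0.333), falling to 0.65 without nicotine replicate 2. The ratio of Fshb to Cga differed by -0.12 (exact permutation p = 1, adjusted 1) and turned to 0.19 without nicotine replicate 3. The ratio of Tshb to Cga was 0.519, 0.161 and 0.821 after nicotine and 0.648, 0.686 and 0.799 in controls. Its log2 difference of -0.79 (exact permutation p = 0.4, adjusted 0.5) fell in size to -0.12 without nicotine replicate 2.

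Among 14505 tested genes with a mean of at least 1 CPM, those whose log2 CPM went most with Lhb over the 6 libraries included Rgs9 (Pearson r = 1.00), B4galnt3 (0.99), LOC691083 (0.99) and Septin9 (0.98). These values describe 6 libraries that also differ in depth. Without nicotine replicate 2, r was 0.99 for Rgs9 and 0.99 for B4galnt3, ranks 2 and 9 of the genes compared, and it was 0.95 for LOC691083 and 0.93 for Septin9. Rgs9, a regulator of G protein signalling, was at 53.0, 71.4 and 54.6 CPM after nicotine and at 49.3, 42 and 46.3 CPM in controls. B4galnt3 encodes a transferase that adds N-acetylgalactosamine to glycans, a step in building the sulfated glycans of luteinizing hormone. It was at 14.6, 24.4 and 14.6 CPM after nicotine and at 13.0, 11.1 and 13.0 CPM in controls. Both genes were picked for their likeness to Lhb over these libraries, so a similar order of the libraries follows from the choice. The log2 fold change was 0.38 for Rgs9 and 0.54 for B4galnt3, with a smaller range than Lhb for both.

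**Figure D4:**
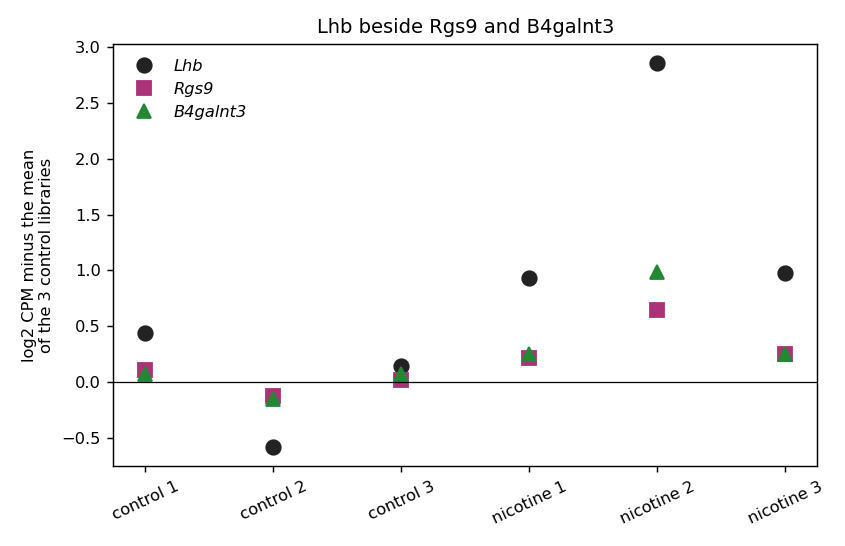
Log2 CPM of Lhb, Rgs9 and B4galnt3 in each library, minus the mean of the 3 control libraries of that gene. Rgs9 and B4galnt3 were picked for likeness to Lhb, and the 3 genes put the libraries in much the same order, lowest in control replicate 2 and highest in nicotine replicate 2, with a wider range for Lhb.

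The genes that went most with Tshb were Gpr12, Nat9, LOC102553857, Arhgap4 and Chst2, with r from 0.98 to 0.99 over the 6 libraries and 0.95 to 0.98 without nicotine replicate 2. Gpr12, which encodes an orphan G protein-coupled receptor, was at 5.39, 3.94 and 8.77 CPM after nicotine and at 6.94, 6.54 and 6.45 CPM in controls. As with Tshb, the lowest and the highest libraries were both nicotine rats, replicates 2 and 3. Gpr12 was picked for its likeness to Tshb over these libraries, so this follows from the choice. The log2 fold changes of the 5 genes lay between -0.14 and -0.05.

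Of 81 further genes of the gonadotropin and thyrotropin pathways, 73 were tested. With all libraries 0 of them were called in edgeR or DESeq2, and 3 of 73 had an unadjusted p under 0.05 in edgeR, against 5.85% of all genes tested, so the share is not above the background. Of 36 tested regulators of the gonadotropins, 17 had a positive and 19 a negative log2 fold change, with a median of -0.0045 against 0.0079 over all genes tested. Gnaq and Junb were among the most abundant by CPM. Gnaq, a G protein subunit downstream of Gnrhr, stood at 113 ± 8.04 CPM with nicotine and at 113 ± 13.6 CPM without (SD, n = 3 each). The group difference was within the spread. Junb, an early response gene, was the only one of these regulators at an unadjusted p under 0.05 (log2 fold change -0.86, SE 0.38, unadjusted p = 0.0462, adjusted p = 0.839 from edgeR). Its level was 224 CPM in control replicate 1 against 61.6 to 88.8 CPM in the other 5 libraries, and the groups overlapped.

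Of 21 tested regulators of thyrotropin, 15 had a positive and 6 a negative log2 fold change, with a median of 0.19. Among the most abundant were Igsf1 (404 ± 112 and 342 ± 69.8 CPM), the lineage factor gene Pou1f1 (341 ± 73.7 and 291 ± 35.6 CPM) and the thyroid hormone receptor gene Thra (151 ± 5.59 and 140 ± 2.76 CPM), each with the nicotine mean first (SD, n = 3). Thra was above the controls in all nicotine libraries, by a log2 fold change of 0.11 (SE 0.15, adjusted p = 0.902 from edgeR). Of the 21 regulators, 3 had all nicotine libraries above the controls and 1 had all below. The shares over all genes tested were 6.12% above and 5.14% below. Slco1c1, which encodes a thyroid hormone transporter, was at 3.20, 5.48 and 3.30 CPM after nicotine and at 2.1, 1.99 and 0.687 CPM in controls. The groups did not overlap. Its log2 fold change was 1.33 (SE 0.41, unadjusted p = 0.00793, adjusted p = 0.807 from edgeR), and an adjusted p of 0.132 in DESeq2. As given above, 5 of 7 posterior lobe genes and 3 of 6 endothelial genes were also higher at an unadjusted p under 0.05 from edgeR. The share over all genes tested was 3.12%. The part of these cells in the difference of Slco1c1 was not tested.

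All 15 enzymes of glycan building on the hormones were tested, 8 with a positive and 7 with a negative log2 fold change and a median of 0.01. Ddost, Stt3a, Mgat1 and Mgat2 were the most abundant, with log2 fold changes of 0.11, 0.06, -0.13 and -0.31, and B4galnt3 was the only one at an unadjusted p under 0.05 (SE 0.22, unadjusted p = 0.0349, adjusted p = 0.839 from edgeR). The sulfotransferase genes Chst8 and Chst9, which act after B4galnt3 on the same glycans, had log2 fold changes of -0.33 and -0.25, and the groups overlapped for both. Of the other 7 genes of the hormone family, its receptors and its releasing hormones, Gpha2 and Tshr were tested. Gpha2, the alpha subunit gene of the related hormone thyrostimulin, stood at 146 ± 79.6 CPM with nicotine and at 183 ± 20.7 CPM without (SD, n = 3 each), with its lowest value of 61.0 CPM in nicotine replicate 2. The thyrotropin receptor gene Tshr was at 0.464 and 0.461 CPM. Its relative Lhcgr, the releasing hormone gene Trh and the thyrostimulin beta subunit gene Gphb5 had means of at most 0.187 CPM in either group, and Fshr was listed at 0 in all libraries.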

How the data were processed

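Total RNA of 6 pituitary glands went into strand-specific paired-end libraries. The authors mapped reads to rn7 with HISAT2 2.1.0 and deposited whole-number counts per gene symbol from featureCounts (ncbiRefSeq), without normalization. How strand and multiply mapped reads were counted is not given in the sources used here.

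The counts (28318383 to 85977002 per library) were analysed in R 4.3.3 with edgeR 4.0.16, using filterByExpr, TMM factors (0.957 to 1.07) and the quasi-likelihood test without covariates, with Benjamini-Hochberg adjustment over all genes tested. Calls used the fold and FDR thresholds of the study's methods. The SE is the fold change on the log2 scale over the root of F. DESeq2 1.42.0 (unfiltered counts) and limma 3.58.1 voom served as alternatives, beside other filters, scaling, thinning, a replicate block and leaving out libraries. Single ratios had exact permutation tests. The edgeR script was tested on simulated data.

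Text names the 9 members, the 4 most abundant genes of each pathway list and those at an unadjusted p under 0.05, the 5 genes most like Lhb or Tshb, and the 2 most abundant of each cell type list, except some genes that are not reported here. Fshr, Gphb5, Chst8, Chst9, Pgr, Tbx19, Tnp2 and Ddx4 were picked with their values known. Members and lists were chosen with earlier results of these data known. RefSeq promoters were found for 6 of the 9.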

Additional observations from a re-analysis of the deposited data

How the results depend on the processing

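The number of the 9 genes called stayed at 0 except without the low-count filter, where it was 1 (Lhb), and in DESeq2 without nicotine replicate 2, added after seeing the data, which called 1 of the 9 (Lhb), 1 pathway gene (Pgr, lower) and 120 genes in all. Over all genes, 62 were called with DESeq2, 30 without the filter, and 1 each with library sizes alone, a minimum of 10 counts, voom with quality weights or thinned counts. With 1 library left out, 0 to 4 were called, of which 4 came without control replicate 2 and 1 without nicotine replicate 2. The replicate block gave 2 calls and changed no call of a member or pathway gene. Whether the numbers pair the samples is not given in the sources used here. Deviations of same-numbered libraries correlated at 0.03, -0.20 and -0.08, which cannot settle it. Tshb reversed to 0.10 with voom, to 0.15, 0.33 and 0.06 without nicotine replicate 1, nicotine replicate 2 and control replicate 1 (range -0.87 to 0.33), and to 0.34 with DESeq2 without nicotine replicate 2. Foxl2 reversed to -0.0071 with voom, to -0.11 without nicotine replicate 2 (range -0.11 to 0.28) and to -0.10 with DESeq2 without it. The other 7 genes kept their direction in all 16 settings. With 1 library left out, log2 ratio differences ranged from 0.65 to 1.53 for Lhb/Cga, -0.30 to 0.19 for Fshb/Cga (0.19 without nicotine replicate 3), -1.29 to -0.12 for Tshb/Cga, -1.49 to -0.91 for Fshb/Lhb and -0.80 to -0.30 for Gnrhr/Lhb. Pairing by replicate number gave exact sign-flip p from 0.25, the smallest it allows, to 1 for the ratios. Apart from samples or genes left out, the cause was not tested. With 3 rats in a group, permutation tests cannot go under 0.1.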
